A study of Mus musculus with 2 samples.

Results

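Within a section of mouse calvarial bone taken 7 days after a bone defect was made, 120 spots carried the highest share of transcripts from 5 adipocyte genes. A spot is one small position of the array on which the section lay, wide enough to hold several cells of different types or parts of cells. The spots were chosen in the section labelled Blank, among the 2249 of 4992 array positions that held at least 3667 unique molecular identifiers (UMIs, one per captured transcript). They were ranked by the summed UMIs of Cfd, Adipoq, Cidec, Retn and Plin1 as a percentage of all UMIs of the spot, and the 120 highest were compared with the remaining 2129. Because measured values of these same spots chose them, every difference between the 120 chosen and the remaining spots is given as a description, without a test.

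White adipocytes store triglyceride in a single large lipid droplet coated with perilipin and CIDE proteins. They take up fatty acids and glucose when fed, release fatty acids through a chain of lipases when fasted, and secrete hormones such as adiponectin, leptin and, in mice, adipsin and resistin. In the head of a mouse, fat lies in the dermis beneath the hair follicles, between muscles and in bone marrow, beside capillaries, mast cells and resident macrophages.

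The study deposited 2 spatial libraries from fresh-frozen calvarial tissue. In the Blank group the defect was left without any collagen/nHA material, and in the Col_nHA group it was filled with that material; both were harvested on day 7. Each group had 1 section, the labels give no strain, age or sex, and so the sections are compared and not the treatments. The Blank matrix held 34868368 UMIs for 31053 genes, and the Col_nHA matrix 45137685; the same 4992 barcodes occur in both because they name array positions. Spot positions on the tissue were not analysed here, so neither the anatomical site of the chosen spots nor which of them touch each other is known.

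The last spot taken and the first left out were almost equal. The spot ranked first had 352 marker UMIs among 13574, a share of 2.59%. The spot ranked 120 had 9 of 4853 (0.185452%) and the next had 23 of 12403 (0.185439%). Among the chosen spots, 7 lay within 10% above the last share, and 12 spots lay within 10% below it. The marker share fell along a smooth slope with no gap, as the plot of marker share by rank shows.

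**Figure D1:**
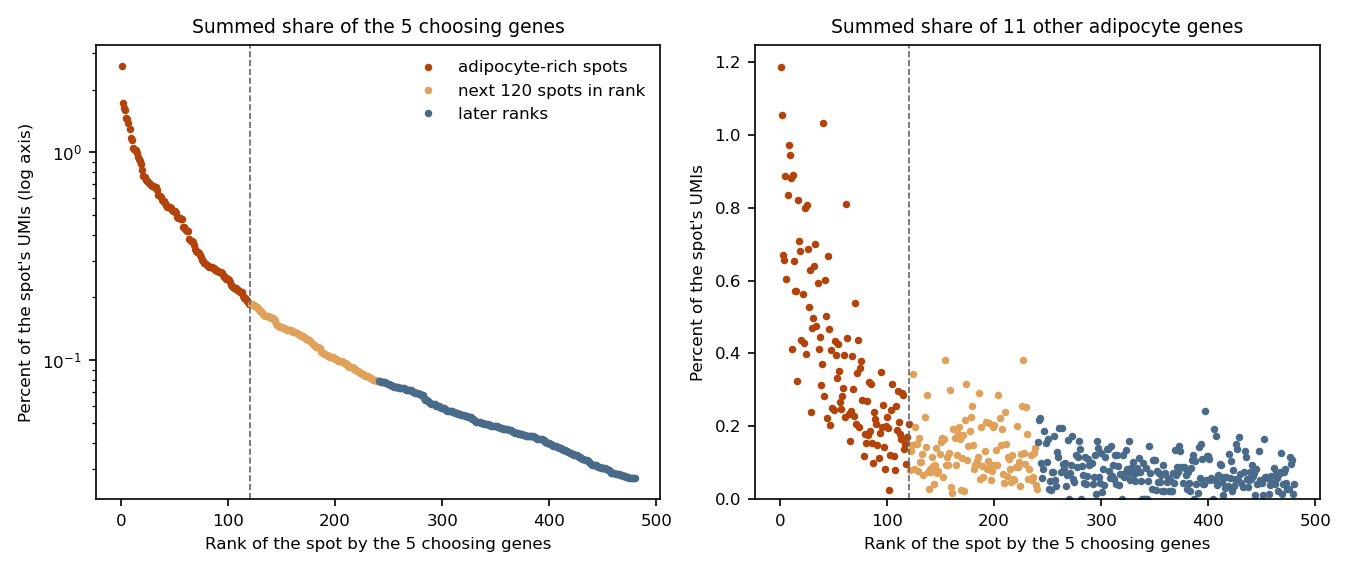
Percent of UMIs of each of the 480 highest-ranked Blank spots (y axis) in the 5 genes that ranked the spots (left, log axis) and in 11 other adipocyte genes, the second list described below (right), against rank (x axis); each point is a spot, and the dashed line follows the last chosen rank. The marker share runs from 2.59% at rank 1 to 0.185% at rank 120 without a step.

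The chosen spots were not the deepest of the section. They held a lowest, median and highest total of 3676, 7896 and 28422 UMIs, against a median of 9896 in the remaining spots, and a median of 3305 detected genes against 3432. Mitochondrial transcripts made up a median of 2.99% of UMIs in the chosen and 4.14% in the remaining spots. Summed, the 120 spots held 1121992 UMIs and the remaining spots 29583857. Levels below are UMIs of a gene summed over a set of spots per 1000000 UMIs of that set (CPM), and ratios carry exact 95% intervals that cover counting error only.

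Cfd, which encodes adipsin, the complement protease factor D, supplied most of the ranking. It lies on mm10 chromosome 10 at 79890853-79892655, and Adipoq (adiponectin) on chromosome 16 at 23146536-23157968. Cfd accounted for 77.8% of the 6366 marker UMIs of the chosen spots. Adipoq supplied 438 of them, Cidec 382, Retn 379 and Plin1 215. The chosen spots had from 6 to 264 Cfd UMIs with a median of 28.5, whereas the remaining spots had a median of 0 and at most 33. The ranges overlapped between 6 and 33 UMIs, a span that holds the median of the chosen spots. Summed Cfd stood at 4414 CPM against 77.8 CPM, a ratio of 56.7 (54.0 to 59.6).

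The other rule genes were sparse, and most of their UMIs lay in the chosen spots, which they helped to choose. Adipoq ran from 0 over a median of 2 to 26 UMIs in the chosen spots and reached 7 elsewhere. Cidec, which fuses lipid droplets (chromosome 6, 113424634-113435760), ran from 0 over 2 to 18, and Retn, which encodes resistin (chromosome 8, 3655770-3659818), from 0 over 2 to 34. Plin1, the coat protein that gates lipolysis (chromosome 7, 79721164-79732904), ran from 0 over 1 to 17. All 5 genes had a UMI in 56 of the 120 spots, 4 genes in 31, 3 genes in 18, 2 genes in 11 and a single gene in 4. In the remaining spots none of the 5 was seen in 1262 (59.3%). The chosen 120 spots held 67.2% of the marker UMIs of all kept Blank spots.

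To see what these spots shared beyond the ranking genes, a second list of adipocyte genes was summed in the same spots. Of its 12 genes, 11 were in the matrix and all 11 had at least 5 CPM in 1 or both sets, the level required before a list member was counted. The list took 0.387% of UMIs in the chosen spots (0.376 to 0.399) and 0.0445% in the remaining ones. By spot, its share ran from 0.0238% over a median of 0.315% to 1.19% in the chosen spots. Only 5 of the 2129 remaining spots reached the median of the chosen spots. Across all genes with at least 10 CPM in 1 or both sets, 899 of 10279 (8.75%) were at least 2-fold higher in the chosen spots and 382 (3.72%) at least 2-fold lower, with a median log2 ratio of 0.16. At the 5 CPM used for list members, 1155 of 12034 genes were at least 2-fold higher and 592 lower. Of the second list, 10 of 11 genes were at least 2-fold higher and none lower, with a median log2 ratio of 4.09. The ranking genes come from the same spots, so nothing about chance follows from these shares. With the scaling factors of edgeR's trimmed mean of M values (TMM), the counts were 635 higher and 576 lower, and the higher genes made up 52.4% of the counted ones in place of 70.2%. That scaling moved the log2 ratio of all genes by 0.20, and a gene or list near 0 has no fixed direction here.

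**Figure D2:**
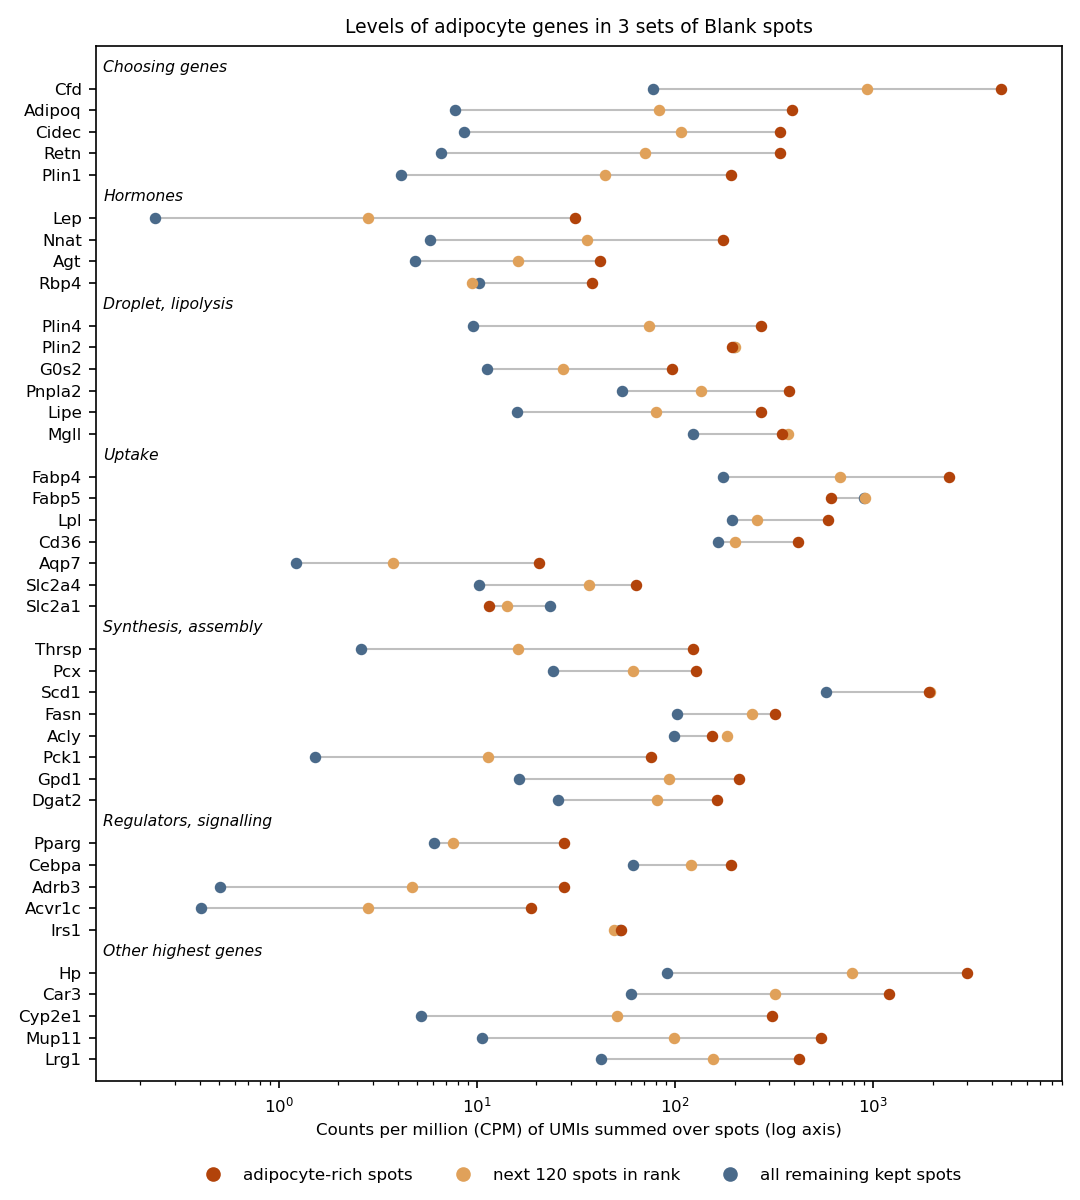
Levels in CPM on a log axis of named genes (rows) in the 120 chosen spots, the next 120 in rank and all remaining Blank spots, each a point, with a grey line joining the points of a gene. Cfd stands at 4414 CPM in the chosen spots and 77.8 CPM in the remaining ones, and Plin2 at nearly the same level in both.

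Leptin, the hormone that reports fat stores to the brain, had few UMIs and almost all of them here. Lep was counted 35 times in the 120 chosen spots, never more than 2 in a spot, and 7 times in the remaining 2129. These were 83.3% of its UMIs among all kept Blank spots. At 31.2 CPM against 0.237 CPM the ratio was 132, with an interval from 57.7 to 352 that reflects the small counts. It was seen in 29 of the 120 spots, and its absence from a spot is not readable at this depth.

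Other secreted products of fat were unequal. Of 14 measured adipokine genes, 7 were at least 2-fold higher and none 2-fold lower, with a median log2 ratio of 1.27. Nnat, the imprinted membrane protein neuronatin, stood at 175 CPM against 5.78 CPM. Agt, angiotensinogen, stood at 41.9 against 4.87 CPM, and Rbp4, the retinol carrier, at 38.3 against 10.2 CPM. Apoc1, an apolipoprotein that restrains lipoprotein uptake, stood at 152 against 49.7 CPM. It was not particular to the chosen spots, since it stood at 499 CPM in spots that only a ranking by sebaceous gland genes took. Apoe, which many cells of a wound express, had a ratio of only 1.21, and Angptl4, an inhibitor of lipoprotein lipase, one of 1.03. The summed list was therefore only slightly higher, at 0.653% against 0.521% of UMIs, since Apoe made up most of it in both sets.

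The coat of the lipid droplet divided by protein. Plin4, a perilipin abundant in white fat, had from 0 over a median of 2 to 13 UMIs per chosen spot and at most 7 in any other, and stood at 272 against 9.60 CPM (ratio 28.3, 24.0 to 33.4). Plin2 and Plin3, the coat proteins of small droplets in many cell types, stood at 195 against 199 CPM and at 51.7 against 52.8 CPM. Plin5, of oxidative tissues, had 4 UMIs in the chosen spots. In the CIDE family Cidec dominated. Cidea, which brown fat and sebaceous glands use, stood at 61.5 against 34.0 CPM, and Cideb, of liver and gut, was not seen, which allows up to 2.67 CPM.

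The enzymes that release fatty acids were higher to different degrees. Lipe, hormone-sensitive lipase, had from 0 over 2 to 16 UMIs per chosen spot and at most 4 elsewhere, and its ratio was 17.1 (14.7 to 19.7). Pnpla2, the lipase that opens the sequence, had a ratio of 6.94 and Mgll, which cuts the last fatty acid, 2.81. G0s2, which inhibits Pnpla2, had a ratio of 8.63, and Abhd5, which activates it, 1.65. Of 12 measured droplet and lipolysis genes, 6 were at least 2-fold higher and none lower, with a median log2 ratio of 1.22.

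Uptake genes were higher with exceptions among isoforms. Fabp4, the fatty acid carrier of adipocytes and capillaries, ran from 0 over 18.5 to 121 UMIs per chosen spot, against a median of 1 and at most 62 in the remaining spots. It stood at 2433 against 176 CPM (ratio 13.8, 13.2 to 14.5), while its epidermal relative Fabp5 stood at 616 against 904 CPM. Slc2a4, the insulin-responsive glucose transporter, stood at 63.3 against 10.2 CPM, while the ubiquitous Slc2a1 stood at 11.6 against 23.3 CPM on 13 UMIs. Lpl, lipoprotein lipase, had a ratio of 3.05, the fatty acid receptor Cd36 2.54, Acsl1, which joins fatty acids to coenzyme A, 4.62, and Aqp7, the glycerol channel, 16.8 on 23 UMIs. In this list 7 of 11 genes were at least 2-fold higher and 1, Slc2a1, lower. The log2 ratio of Slc2a1, -1.01, was -0.47 when choice and measurement used separate UMIs. The uptake list took 0.614% of UMIs in spots of the sebaceous gland ranking alone and 0.453% in those of the adipocyte rule alone. Fabp5 stood at 3714 and 434 CPM in these sets, and Lpl at 366 and 601 CPM.

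Genes that build fat followed. All 7 measured genes of triglyceride assembly were at least 2-fold higher, with a median log2 ratio of 1.59. Pck1, which makes the glycerol backbone from pyruvate, stood at 75.8 against 1.52 CPM (ratio 49.8, 34.3 to 73.2). Gpd1, which makes it from glucose, stood at 211 against 16.4 CPM, and Dgat2 and Dgat1, which attach the last fatty acid, had ratios of 6.34 and 2.78. Of 14 measured genes of fatty acid synthesis, 7 were at least 2-fold higher and none lower. The synthesis list took 1.37% of UMIs in spots of the sebaceous gland ranking alone and 0.304% in those of the adipocyte rule alone. For the assembly list these shares were 0.0591% and 0.0767%. Thrsp, a lipogenic nuclear protein, had a ratio of 47.3, and Pcx, pyruvate carboxylase, one of 5.30. Fasn, fatty acid synthase, had a ratio of 3.13 and Scd1, the desaturase, of 3.32. Acly, which supplies acetyl-CoA, stood at 154 against 98.9 CPM and Scd2 at 188 against 206 CPM.

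Regulators of the adipocyte were present at low counts. Pparg, the nuclear receptor that drives fat cell formation, stood at 27.6 against 6.08 CPM on 31 UMIs. Cebpa stood at 192 against 61.8 CPM, and the carbohydrate-responsive factor Mlxipl at 26.7 against 3.82 CPM. Of 11 measured factors, 6 were at least 2-fold higher and none lower, with a median log2 ratio of 1.02. The list took 0.0771% of UMIs in the chosen, 0.0709% in the next 120 and 0.0419% in all remaining spots. It took 0.103% in spots of the sebaceous gland ranking alone and 0.0776% in those of the adipocyte rule alone. The higher share of these factors was thus not particular to the chosen spots. Among receptors and signalling genes 7 of 11 were at least 2-fold higher. Adrb3, the adrenergic receptor of fat, stood at 27.6 against 0.507 CPM. Acvr1c, the activin receptor ALK7, stood at 18.7 against 0.406 CPM, and Hcar1, the lactate receptor, had a ratio of 8.11. The insulin receptor substrate Irs1 stood at 53.5 against 53.1 CPM.

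Heat-producing fat was not detectable. Ucp1, the uncoupling protein that defines brown and beige adipocytes, had 0 UMIs in the chosen spots, which allows up to 2.67 CPM, and 1 UMI in the remaining ones. Cox8b and Cox7a1, respiratory subunits of both muscle and brown fat, had ratios of 2.71 and 2.64. Muscle genes were also more abundant in these spots, as given below, and without the chosen spots rich in muscle or epidermis transcripts the log2 ratios of Cox8b and Cox7a1 were 0.72 and 0.65, in place of 1.44 and 1.40.

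Promoters of sparse genes with most of their UMIs in the chosen spots are shown for Lep and for Plin1, which helped to choose these spots. RefSeq windows of 250 bases before a start site (build GRCm38.p6) were found for 26 of the 38 genes that made up the rule, the second list and the 25 highest ratios, 30 windows in all. They were searched on both strands for TTGCNNAA, a spelling of the C/EBP motif. In these lines, 5′ to 3′ on the gene's strand, capitals mark its matches.

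Lep, chr6:29059971-29060220, plus strand: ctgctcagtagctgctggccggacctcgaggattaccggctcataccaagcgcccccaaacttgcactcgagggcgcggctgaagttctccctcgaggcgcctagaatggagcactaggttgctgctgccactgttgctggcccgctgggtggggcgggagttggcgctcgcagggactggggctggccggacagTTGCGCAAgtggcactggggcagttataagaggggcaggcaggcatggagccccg
Plin1, chr7:79732777-79733026, minus strand: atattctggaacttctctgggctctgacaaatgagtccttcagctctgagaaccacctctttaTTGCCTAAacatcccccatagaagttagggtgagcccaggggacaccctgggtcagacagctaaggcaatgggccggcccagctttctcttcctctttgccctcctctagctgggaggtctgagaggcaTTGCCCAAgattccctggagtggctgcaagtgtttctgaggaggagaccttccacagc

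The Lep match began 55 bases before the start site, and those of Plin1 began 187 and 58 bases before its start site. The Plin1 window overlaps the chromosome interval given above for the gene, so it belongs to an inner start site. The Plin1 match at 58 bases lies within that interval. TTGCNNAA occurred in 4 of the 30 windows (13.3%), those of Lep, Plin1, Cidec and Retnla, and in 9.56% of all 32851 windows of that length. A direct repeat of AGGTCA with a single base between its copies and at most 2 mismatches, the spelling bound by PPARG with its partner, occurred in 2 windows (6.67%), both of Aqp7, and in 3.24% of all windows. These are matches of letters in short windows and show no binding.

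Among the genes with the highest ratios, several are better known from liver. Cyp2e1, a cytochrome P450, had from 0 over a median of 2 to 22 UMIs per chosen spot and at most 5 elsewhere, and its ratio was 59.6 (49.1 to 72.5). Hp, haptoglobin, which binds free haemoglobin, ran from 0 over 17.5 to 145 UMIs, against at most 55 elsewhere, and stood at 2988 against 91.0 CPM (ratio 32.9). Car3, the carbonic anhydrase of fat and muscle, ran from 0 over 6.5 to 69, against at most 25, with a ratio of 20.2. Lrg1, an acute-phase glycoprotein, had a ratio of 10.0 and Cyp2f2 one of 17.1. The defining liver gene Alb, looked up after these values were seen, had 4 UMIs in the chosen and 4 in the remaining spots, or 3.57 against 0.135 CPM, a ratio of 26.4 (4.91 to 142). Apoa1, of liver and gut, had 2 and 3 UMIs. Also looked up afterwards, Trf, transferrin, and Ces1d, a carboxylesterase of fat and liver, stood at 722 against 117 CPM and 86.5 against 13.2 CPM.

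Major urinary protein genes, which encode small carriers of lipids and scents, were part of that group. Mup7 stood at 99.8 against 1.66 CPM, Mup11 at 545 against 10.6 CPM and Mup17 at 81.1 against 2.13 CPM. These genes are near-identical copies on chromosome 4, so how their reads were divided is uncertain. The windows before Mup7 and Mup11 are shown to make that likeness visible, with the stretch they share in capitals.

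Mup7, chr4:60070476-60070725, minus strand: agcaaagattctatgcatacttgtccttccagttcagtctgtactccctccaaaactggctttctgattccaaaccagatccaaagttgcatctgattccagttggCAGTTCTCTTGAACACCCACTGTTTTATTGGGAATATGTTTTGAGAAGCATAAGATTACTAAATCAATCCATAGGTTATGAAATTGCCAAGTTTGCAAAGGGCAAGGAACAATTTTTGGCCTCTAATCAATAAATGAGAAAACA
Mup11, chr4:60662396-60662645, minus strand: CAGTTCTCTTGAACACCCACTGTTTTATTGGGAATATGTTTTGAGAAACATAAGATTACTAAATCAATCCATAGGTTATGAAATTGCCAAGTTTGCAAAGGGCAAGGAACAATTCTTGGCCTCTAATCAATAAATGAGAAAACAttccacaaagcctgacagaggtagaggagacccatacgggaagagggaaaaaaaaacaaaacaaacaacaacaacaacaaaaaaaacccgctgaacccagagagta

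Of the 144 shared bases 142 were the same (98.6%). The shared stretch stood 106 bases nearer to the annotated start of Mup7 than to that of Mup11.

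Further genes with high ratios have roles in fat or amino acid transport. Adig, adipogenin, stood at 103 against 9.46 CPM, and Sncg, a synuclein of fat and nerve, at 72.2 against 9.74 CPM. Slc7a10, a transporter of small amino acids, stood at 64.2 against 6.52 CPM, and Wfdc21, a small secreted WAP-domain protein, at 213 against 14.5 CPM. Some genes of the complement pathway of Cfd were also higher. C3, the central complement protein, stood at 1046 against 319 CPM and Cfb, the substrate that factor D cuts, at 200 against 60.6 CPM. In the list of that pathway, 5 of 9 genes were at least 2-fold higher, among them Cfd, which helped to choose the spots. In spots that only a ranking by mast cell genes took, C3 stood at 872 and Cfd at 362 CPM. In those that only the adipocyte rule took, they stood at 1073 and 4151 CPM.

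Spots low in the ranking differed in kind from those at its top. Over ranks 1 to 40, 41 to 80 and 81 to 120, the second list took 0.631%, 0.321% and 0.197% of UMIs, and over the next 120 spots 0.128%. Hp followed the same slope at 5375, 2029 and 1484 CPM, and Fabp4 at 4010, 2044 and 1157 CPM. Fatty acid synthesis did not, at 0.397%, 0.304% and 0.415%, with 0.364% in the next spots. The sebaceous gland list took 0.152%, 0.165% and 0.297%, and the epidermis list 0.131%, 0.186% and 0.419%, with 0.747% in the next 120 spots. The last band and the spots after it therefore held more skin transcripts than the first band. Scd1, which sebaceous glands also express, stood at 1947, 1522 and 2340 CPM over the 3 bands, and the part of sebaceous tissue in its value was not tested.

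**Figure D3:**
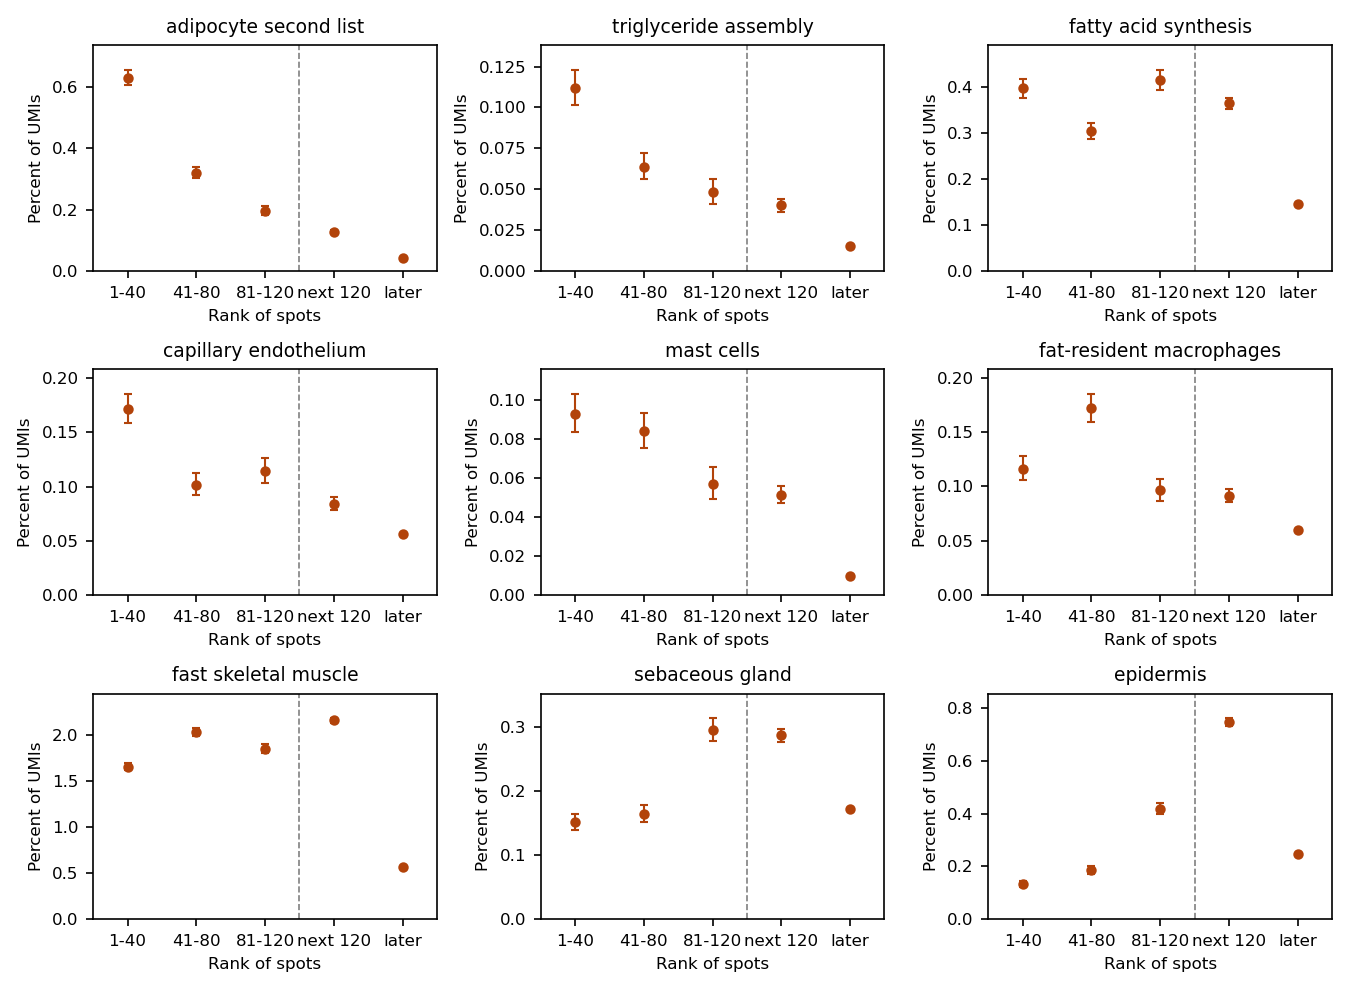
Percent of UMIs in each list (y axis) over the spots ranked 1 to 40, 41 to 80, 81 to 120, the next 120 and the later Blank spots (x axis) in 9 panels, with bars giving exact 95% counting intervals and a dashed line after the chosen spots. The second adipocyte list falls from 0.631% to 0.128% over the first 4 sets, while the epidermis list climbs from 0.131% to 0.747%.

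Among the lists of other tissues held to a limit of 2% of UMIs, that of fast skeletal muscle passed it most often in the chosen spots. In 40 of the 120 chosen spots (33.3%, 24.99 to 42.5) the fast muscle list exceeded 2% of UMIs, against 24 of the next 120 and 135 of the 2129 remaining spots (6.34%). All 12 genes of that list were at least 2-fold higher, with a median log2 ratio of 1.60. The list took 1.85% of UMIs in the chosen, 2.16% in the next 120 and 0.617% in all remaining spots. A high pooled muscle share was therefore not particular to the chosen spots. Myh1, a fast myosin heavy chain, ran from 0 over 12 to 140 UMIs in the chosen spots. In the remaining spots it ran from 0 over 1 to 933, so the spots richest in Myh1 were not among the chosen ones. Acta1, skeletal actin, stood at 5190 against 1888 CPM and Ckm, muscle creatine kinase, at 1695 against 459 CPM. Without the 41 chosen spots rich in muscle or epidermis, the log2 ratio of Myh1 was 0.38 in place of 1.66, since those spots were left out by their muscle genes. The 3 rank bands held 12, 15 and 13 such spots of 40 each.

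The rule markers, which chose the spots, took similar shares in chosen spots above and below that muscle limit, while the second list did not. In the 40 muscle-containing chosen spots the rule markers took 0.571% and the second list 0.442% of UMIs. In the other 80 chosen spots they took 0.566% and 0.365%. Those 80 were not free of muscle, since the fast muscle list took 0.870% of their UMIs, against 0.617% in all remaining spots. Over the 120 spots the Spearman correlation of the marker share with the fast muscle share was -0.08, and with the second list 0.81. All points share a library, and the rule fixed the lower limit of the marker share. Over all 2249 kept spots the marker and fast muscle shares had a correlation of 0.66. Fibroblast transcripts took 5.17% in the muscle-containing spots and 8.44% in the others, the lymphatic list 0.160% and 0.0592%, and the mast cell list 0.0534% and 0.0889%.

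**Figure D4:**
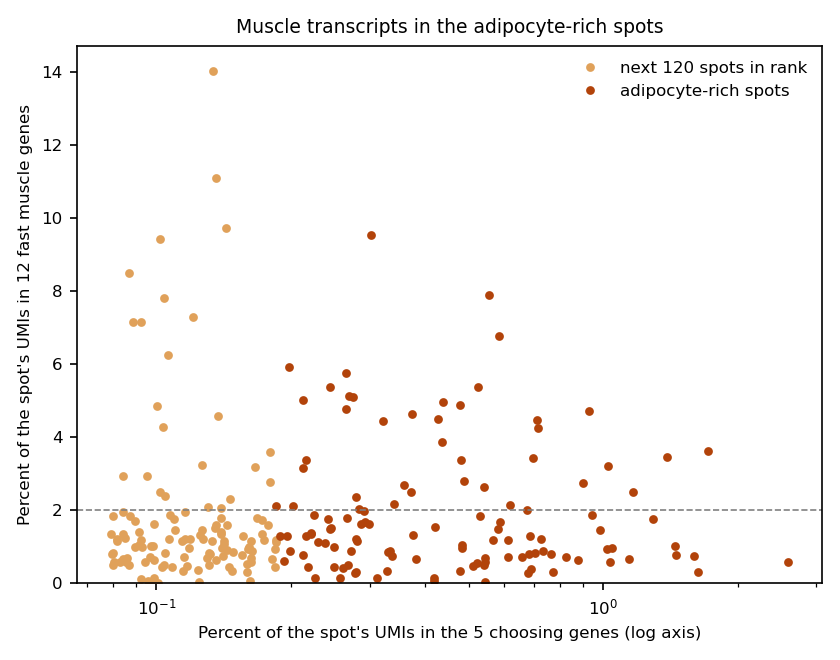
Percent of UMIs in the fast skeletal muscle list (y axis) against percent in the 5 rule markers (x axis, log scale) for the 120 chosen spots and the next 120 in rank, each point a spot, with the 2% line dashed. Of the chosen spots 40 lie above the line, and of the next spots 24.

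Genes of mast cells, granule-filled immune cells that release proteases and histamine, were higher in the chosen spots. Of the 8 genes of the list, 6 reached 5 CPM, and all 6 were at least 2-fold higher, with a median log2 ratio of 2.70. The list took 0.0786% against 0.0114% of UMIs. Mcpt4, a connective-tissue mast cell chymase, ran from 0 over 2 to 25 UMIs in the chosen spots and from 0 to 27 in the remaining ones, so the ranges overlapped fully. It stood at 356 against 43.7 CPM, Cma1 at 247 against 34.4 CPM and Cpa3 at 54.4 against 9.19 CPM. Within the chosen spots the mast cell share had a Spearman correlation of 0.20 with the marker share (120 spots of a single library).

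Macrophage genes split by the state they mark. Of 9 genes of resident macrophages of connective tissue, 7 were at least 2-fold higher, with a median log2 ratio of 1.86. Retnla, a resistin-like protein of alternatively activated macrophages, ran from 0 over 0 to 35 UMIs per chosen spot and stood at 156 against 17.4 CPM. A few spots carried it, since 5 held 57.1% of its 175 UMIs. In ranks 41 to 80 it stood at 289 CPM, against 84.6 CPM in ranks 1 to 40, and at 211 and 49.1 CPM without the richest spot of each band. The scavenger receptors Cd163 and Mrc1 had ratios of 5.89 and 2.49, and Clec10a, a lectin, one of 4.83. Of 11 genes of lipid-associated macrophages, which gather around dying fat cells in obese fat, none was 2-fold higher and 4 were at least 2-fold lower. Spp1 (osteopontin, also made by bone cells) stood at 379 against 1523 CPM, Trem2 at 61.5 against 157 CPM, Gpnmb at 121 against 251 CPM and Mmp12 at 50.8 against 167 CPM. The lipid-associated list took 0.700% of UMIs in the chosen, 0.693% in the next 120 and 0.992% in all remaining spots. By spot its median was 0.652% in the chosen and 0.816% in the remaining spots, where it reached 10.7%. Of 11 general macrophage genes, 2 were at least 2-fold higher and 1 lower, with a median log2 ratio of 0.51. The lower one, Lyz2, stood at 2093 against 4247 CPM. The lower values of the lipid-associated genes held for the spots ranked by the 5 markers. When the second list ranked the spots instead, the log2 ratios of Spp1, Gpnmb and Mmp12 were 0.51, 1.38 and 1.66, and that of Trem2 was -0.31. The 33 spots that ranking alone took held 0.583% of their UMIs in the osteoblast list and 2.45% in the lipid-associated macrophage list, against 0.0350% and 0.641% in the 33 spots that the 5 markers alone took. Neutrophil genes were lower, with 4 of 5 at least 2-fold lower.

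Genes of vessels were also higher. Of 12 endothelial genes, 7 were at least 2-fold higher and none lower. Cd300lg, of capillaries and venules, stood at 78.4 against 14.2 CPM and Pecam1, of all endothelium, at 192 against 77.8 CPM. Kdr, the main VEGF receptor, stood at 29.4 against 32.3 CPM. Of 6 lymphatic genes, 5 were at least 2-fold higher, led by the chemokine Ccl21a at 605 against 105 CPM, of which a single spot held 20.3% of the UMIs. Because levels are shares of the RNA caught in a spot, more cells of a type and more RNA per cell cannot be told apart here.

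The stem and progenitor genes of fat were partly higher. Of 11 genes, 5 were at least 2-fold higher and none lower. Ly6a, which marks progenitors and also endothelium, ran from 1 over 17 to 93 UMIs in the chosen spots and from 0 over 5 to 138 in the remaining ones, and stood at 2354 against 686 CPM. Pi16, of universal fibroblasts, stood at 618 against 201 CPM and Cxcl14, a chemokine of skin and fat stroma, at 285 against 61.3 CPM. Pdgfra, the receptor of nearly all fibroblasts, stood at 109 against 99.9 CPM, and Dlk1, which marks preadipocytes, at 40.1 against 38.6 CPM. Gsn, gelsolin, stood at 2558 against 472 CPM, while the collagen gene Col1a1 stood at 27654 against 31648 CPM. The fibroblast list as a whole took 7.49% against 8.34% of UMIs.

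**Figure D5:**
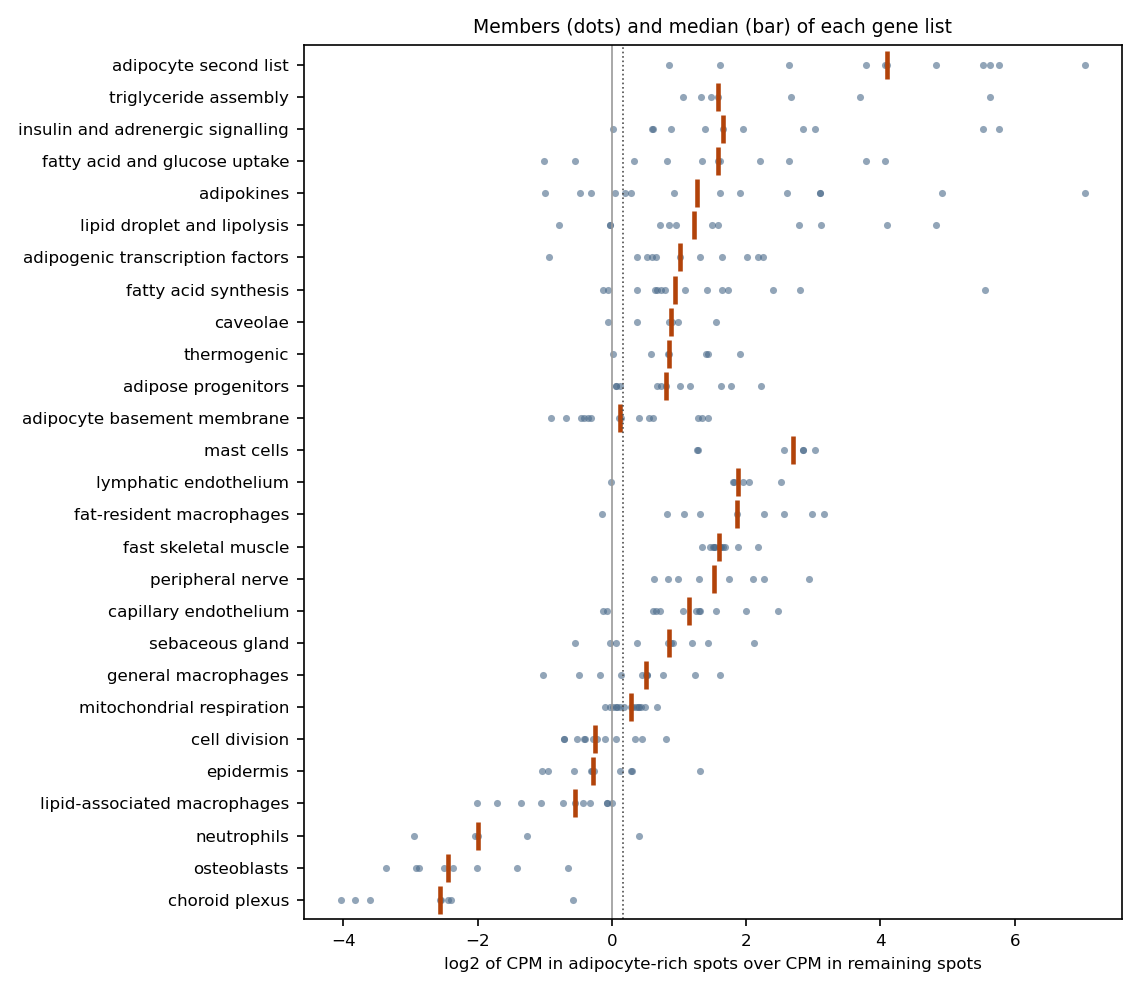
Log2 ratio of chosen over remaining Blank spots (x axis) for the members of each gene list (rows), with points for genes and a mark for the list median; the dotted line at 0.16 is the median of all 10279 genes. Adipocyte, mast cell and fast muscle lists lie to the right, and osteoblast and choroid plexus lists to the left.

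The osteoblast and choroid plexus lists had the lowest medians. Of 8 osteoblast genes, 7 were at least 2-fold lower, with a median log2 ratio of -2.44. Bglap, osteocalcin, ran from 0 over 0 to 15 UMIs in the chosen spots and from 0 over 1 to 728 in the remaining ones. It stood at 57.9 against 598 CPM, and 5 of the chosen spots held 76.9% of its 65 UMIs. Its level was 146 CPM in ranks 41 to 80, against 5.29 CPM before and 14.5 CPM after them. Ibsp, bone sialoprotein, stood at 16.0 against 91.0 CPM, and Mmp9, the gelatinase of osteoclasts and neutrophils, at 45.5 against 254 CPM. Ttr, transthyretin of the choroid plexus, ran from 0 over 6 to 56 UMIs in the chosen spots and from 0 over 7 to 28886 in the remaining ones. The medians were nearly the same, and the lower pooled level (795 against 11205 CPM) came from rich remaining spots: without remaining spots rich in other tissue the log2 ratio was -0.36 in place of -3.82. Kl, which the choroid plexus also makes, had 5 UMIs in the chosen spots and stood at 4.46 against 54.2 CPM.

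Free RNA reaches spots without the cells, so shares of spots were compared at equal depth. Each spot was thinned at random to 2000 UMIs. A Cfd UMI was then seen in 98.3% of the chosen spots (94.1 to 99.8), in 87.5% of the next 120 and in 15.5% of all remaining spots. Among 732 barcodes with between 2000 UMIs and the minimum, the share was 19.1% (16.3 to 22.2). A Cfd UMI in a remaining spot was thus no more frequent than in those barcodes, which stand here as the background. They took 0.0211% of their UMIs from the 5 markers, against 0.0107% in barcodes under 1000 UMIs, and how much of this was free RNA and how much thin tissue was not tested. Before thinning, 100% of the chosen and 35.7% of the remaining spots had one. Adipoq was seen in 45.0% of the chosen and 1.97% of the remaining spots, and in 3.42% of the background barcodes. For Fabp4 the chosen, next and remaining spots had 95.0%, 65.0% and 25.4%, and the background 25.4%. Mcpt4 was seen in 47.5%, 35.0% and 8.97%, and in 7.92% of the background barcodes. Below the minimum, 56 of 2743 barcodes reached the marker share of the last chosen spot, of which 19 had at least 5 marker UMIs.

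Sets of spots ranked by other lists overlapped the chosen ones to different degrees. The 120 spots richest in the sebaceous gland list shared 11 spots (9.17% of each set), and those richest in oxidative muscle 19 (15.8%). The mast cell set shared 39 (32.5%), and the set ranked by the fibroblast genes Pi16, Dpt, Clec3b and Gsn, added after the data were seen, shared 42 (35.0%). The set ranked by the second adipocyte list shared 87 (72.5%). Fat cells and sebaceous cells both store lipid, and their spots are compared here on genes that neither ranking used. Spots of the sebaceous set alone stood at 8099 CPM for Scd1 and 534 CPM for Cidea, and spots chosen by the adipocyte rule alone at 1475 and 34.4 CPM. Fabp4 stood at 250.5 CPM in the sebaceous spots alone and 2539 CPM in the chosen spots alone. Dgat2 stood at 154 CPM in the first and 165 CPM in the second. In the 33 spots that only the second list took, Scd1 stood at 6418 CPM.

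Ranking on one random portion of the UMIs and measuring in the rest gave close values. When each spot's UMIs were split evenly at random, 107 of the 120 spots were taken again from the first portion. In the second portion the marker share of the taken spots was 0.527%, against 0.562% in the portion that chose them. Cfd stood at 4091 against 80.6 CPM and Fabp4 at 2277 against 179 CPM in the second portion.

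Spots of this kind were fewer in the Col_nHA section. With a UMI minimum of 4635, set by the same Otsu method that gives 3665 in Blank, 2495 spots were kept there. Of these, 13 (0.521%, 0.278 to 0.889) had at least the marker share of the last chosen Blank spot, against 120 of 2249 in Blank (5.34%, 4.44 to 6.35), which the rule set. At a minimum of 2000 UMIs in Col_nHA the count was 21. The 13 spots held 525 marker UMIs, 52.8% of those of the kept section. With 1 section a group, the treatment and the section cannot be told apart. Within the 13 spots the second list took 0.406% of UMIs (0.370 to 0.445), against 0.387% in the chosen Blank spots. Cfd stood at 3450 CPM, Fabp4 at 2739, Adipoq at 525 and Hp at 2303 CPM, against 4414, 2433, 390 and 2988 CPM in Blank. Lep had 1 UMI there. The mast cell list took 0.0382% in the 13 spots and 0.0786% in the 120, and the osteoblast list 0.194% and 0.0516%. Muscle transcripts exceeded 2% in 5 of the 13 spots. The fast muscle list took 2.84% of UMIs in the 13 spots and 1.59% in the other kept Col_nHA spots.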

How the data were processed

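Per the labels, 2 fresh-frozen calvarial sections (Blank and Col_nHA, 1 each) were profiled on a spatial array. The labels' library text describes a single-cell kit, and no source used here names the array chemistry. The authors deposited raw UMI counts per gene and barcode, made with Space Ranger on mm10 per the submitters' processing notes, without a version. The file headers name Cell Ranger 4 output. Fewer counts per spot widen every interval.

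Barcodes with at least 3667 UMIs were kept in Blank, and counts were summed over spots and divided by their totals. Genes entered at 10 CPM in 1 or both sets and list members at 5 CPM, and 2-fold was the limit counted. Ratios have exact conditional binomial intervals and shares have Clopper-Pearson intervals, at a level of 95%; PCR and neighbouring spots add error that they do not cover. A gene at 0 is given with the limit that 3 counts allow. No test across spots was made, since spots of a single section are not replicates. Doublet callers were not used, since spots hold several cells. The members, markers and lists were chosen with earlier results of these data known, and the spots with measured values.

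Named genes were the 5 rule markers, the 25 genes of highest and the 15 of lowest ratio at 50 CPM or more, every member of the adipocyte lists, and from each other list the 2 most abundant and 2 most different members; not every gene of this rule is reported here. Alb, Apoa1, Trf and Ces1d were named after their values were seen. Promoter sequences are from RefSeq, and Fabp4, Hp and Car3 had no entry. The summing was tested on simulated data with 200 changed genes among 9782. For the Blank comparison 100% of 4-fold changes were counted, and 95.6% of intervals held the true ratio. The simulated spots followed 2 fixed profiles without variation among spots beyond counting. The result therefore checks the arithmetic and not how well the intervals cover real spots. The alternatives were other numbers of spots, UMI minimums, ranking genes, scalings (edgeR 4.0.16, R 4.3.3), CPM minimums, pooling and exclusion of spots with other tissue. Python 3.11.15, numpy 2.4.6, scipy 1.17.1, pandas 2.3.3 and matplotlib 3.10.9 were used.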

Additional observations from a re-analysis of the deposited data

How the results depend on the processing

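The 382 genes at least 2-fold lower became 587 with the top 60 spots, 576 with TMM scaling, 592 with a minimum of 5 CPM and 132 with one of 50 CPM, and the 899 higher genes became 358 at 50 CPM, where fewer genes were tested. The second-list share (0.387%) became 0.528% with the top 60 spots, 0.262% with the top 240, 0.311% at a minimum of 6000 UMIs, 0.403% when that list ranked the spots, 0.368% when choice and measurement used separate UMIs, and 0.366% in the 79 spots without other tissue. Ranking by the second list turned the log2 ratios of Gpnmb, Mmp12 and Spp1 to 1.38, 1.66 and 0.51. Of 100 named genes, the mean of per-spot CPM moved 52 log2 ratios beyond their counting intervals without turning any of those past 2-fold, and gave 858 higher and 389 lower genes. The Col_nHA count was 21 at a minimum of 2000 UMIs. The settings differ in the spots, UMIs or genes used, and further causes were not tested. Ranking without Cfd and leaving out the richest spot were chosen after the data were seen; the first gave 866 higher and 370 lower genes and 96 of the same 120 spots. No paired analysis was possible because each group had 1 section. Depth limited Lep, Pparg and Adrb3, with 35, 31 and 31 UMIs, and Ucp1 was not detectable.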

Other observations

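Of 15 nuclear genes of mitochondrial respiration, none was 2-fold higher or lower in the 120 spots, with a median log2 ratio of 0.29, beside a lower mitochondrial share of UMIs. Of 12 hypoxia and glycolysis genes, 1 was at least 2-fold higher and 2 lower. Over all 12034 genes with at least 5 CPM, 1155 were higher and 592 lower, so the count of higher genes was near that of all genes. The higher one was the mitophagy receptor Bnip3 at 134 against 38.7 CPM. The lower ones included the glycolytic enzyme gene Eno1 at 43.7 against 130 CPM. None of 12 cell division genes reached 2-fold. Of 9 acute inflammation genes, 3 were higher and 2 lower. Saa3, an acute-phase protein of fat and macrophages, stood at 208 against 69.8 CPM, and a single spot held 33.0% of its UMIs.

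Among 8 genes of the pericyte and smooth muscle list, 1 was at least 2-fold higher and 1 lower. Over all 12034 genes with at least 5 CPM, 1155 were higher and 592 lower, so neither count sets the list apart. The higher gene of the list was Myh11, the smooth muscle myosin, at 83.8 against 13.7 CPM. Its level over the 3 rank bands was 47.6, 50.2 and 162 CPM, and that of the last band was 99.5 CPM without the spot that held 23 of its 94 UMIs. Mbp, myelin basic protein, stood at 82.0, 85.4 and 200 CPM, and at 121 CPM in the last band without its richest spot. Scd3, a desaturase gene, stood at 0.00, 10.0 and 46.3 CPM and Elovl4, which makes very long fatty acids in skin, at 161, 299 and 665 CPM, with 489 CPM in the last band without its richest spot. These bands come from a single section and were not tested.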
